A study of Mus musculus with 6 samples.

Results

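The genes described here are the 6 enzymes that write DNA methylation or begin its removal in mouse cells: the maintenance methyltransferase gene Dnmt1, the de novo methyltransferase genes Dnmt3a and Dnmt3b, and the dioxygenase genes Tet1, Tet2 and Tet3. Their probes were found by matching the accession printed in the scanner file to RefSeq. This gave 10 probes for 5 of the 6 genes, out of 55681 probes in all, and all 5 genes were among the 13140 tested. No probe was matched to Tet1 in this way, so Tet1 was not analysed here.

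Cells in S phase had been sorted from the dorsal telencephalon, which forms the cerebral cortex, at embryonic day 14.5. All embryos were heterozygous for GFP knocked into the Tis21 (Btg2) locus on a C57BL/6 background, so both groups carry the same allele, and the groups differ in the GFP signal by which the cells were sorted. Tis21-GFP marks neural progenitors that have turned to neuron production, and the GFP is driven by the Tis21 locus itself. There were 3 Tis21-GFP positive and 3 Tis21-GFP negative samples, each from about 200000 sorted cells pooled from the 30 hemispheres of 15 embryos, and the submitters chose the 3 sets from 4 independent experiments. Each sample was read on 1 one-colour Agilent array. Between 28520 and 31277 probes per array were well above background. Arrays of one group correlated at 0.983 to 0.992 over the tested genes, and arrays of different groups at 0.954 to 0.972.

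DNA methylation in mammals sits mostly on cytosines followed by guanine. Dnmt1 copies the mark onto the new strand behind the replication fork, where Uhrf1 recruits it to hemimethylated sites, and it binds the sliding clamp encoded by Pcna. Dnmt3a and Dnmt3b place methylation on sites that had none, and Dnmt3b is best known from early embryos and Dnmt3a from later neural development. Tet enzymes oxidise methylcytosine in a reaction that needs iron and alpha-ketoglutarate. The oxidised bases can be lost at replication, and some of them are cut out by the glycosylase Tdg and replaced by base excision repair.

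The maintenance gene Dnmt1 and the de novo gene Dnmt3a moved in opposite directions. In Tis21-GFP positive cells Dnmt1 was 1.64-fold higher, Dnmt3a was 2.62-fold lower, and Dnmt3b differed by less than the spread between arrays. Tet2 was 1.52-fold higher by its brightest probe and just missed the threshold. Tet3 showed no difference beyond its spread. Of the 5 measured enzymes, 1 rose and 1 fell, against 12.8% of all tested genes called higher and 13.1% called lower. These are differences between bulk samples, in which fewer cells of a type and less RNA per cell cannot be told apart.

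**Figure D1:**
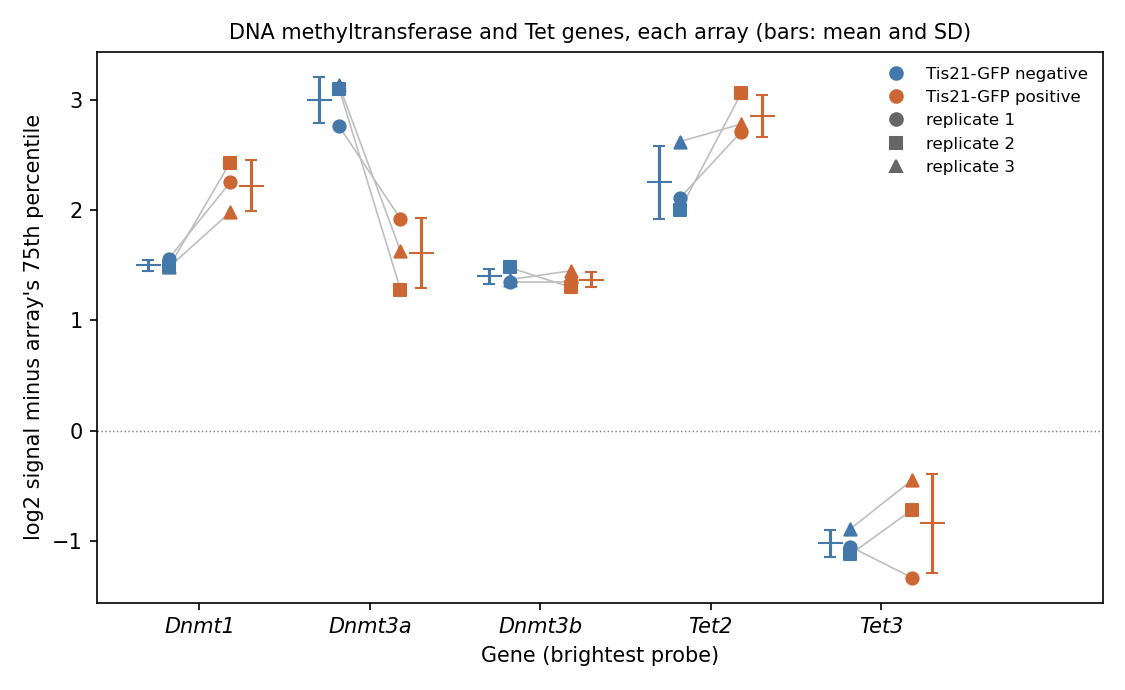
Log2 signal of the brightest probe of each enzyme gene, minus the 75th percentile of its array (vertical axis), on each of the 6 arrays (points), with the mean and SD of each group (bars) and grey lines that join arrays of the same replicate number. The 3 positive arrays lie above all negative arrays for Dnmt1 and Tet2 and below them for Dnmt3a, whereas the groups overlap for Dnmt3b and Tet3.

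Levels below are log2 processed intensities of a probe minus the 75th percentile of log2 intensity on the same array, so that 0 is the brightness of the 75th-percentile probe. A difference is the mean of the positive arrays minus the mean of the negative arrays on that scale, with the moderated SE of limma, and a gene was called at an adjusted p (Benjamini-Hochberg over all 13140 tested genes) under 0.05. The median difference of all tested genes was 0.115, and differences are given without subtracting it. Probe brightness depends on the probe, so levels are compared within a gene and never between genes.

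Dnmt1, on chromosome 9, was read by 1 probe. Its scaled log2 level was 1.56, 1.48 and 1.48 on the negative arrays of replicates 1, 2 and 3 and 2.25, 2.43 and 1.98 on the positive arrays. Every positive array lay above every negative array, as it did for 28.2% of all tested genes. Positive cells averaged 2.22 ± 0.23 and negative cells 1.5 ± 0.05 (SD, n = 3), and the positive arrays were the more spread. The difference was 0.71 ± 0.15 (SE, limma adjusted p = 0.0115), with a 95% confidence interval of 0.37 to 1.06. Within same-numbered arrays Dnmt1 was higher in positive cells by 0.70, 0.95 and 0.50. It passed under each of the 16 alternatives tried, with differences between 0.54 and 0.90.

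The replication genes, to which Dnmt1 is tied by its work at the fork, were higher in the same cells. Of all tested genes, 12.8% were called higher and 13.1% lower. Of 25 genes in a list of replication genes of S phase, 18 rose and 0 fell, with a median difference of 0.68. That median was above the 0.115 of all tested genes, and the difference of Dnmt1 lay close to it. The largest were those of Rrm2, a subunit of the ribonucleotide reductase that makes deoxynucleotides (1.51 ± 0.14, SE, limma adjusted p = 0.000337), and Fen1, which trims the lagging strand (1.33 ± 0.12). Chaf1b, part of the chaperone that loads histones behind the fork, rose by 0.99 ± 0.12. The list was chosen with earlier results on these arrays known and is no independent evidence about Dnmt1.

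The promoter of Dnmt1 is shown because its RefSeq windows, alone among those of the 6 enzymes, held letters of the kind bound by E2F factors, the regulators of many replication genes. Windows ran from 250 bases before to 50 bases after an annotated start (RefSeq, build GRCm38.p6), and all 6 enzymes had at least 1, 10 in all. The letters searched were TTTCGCGC and TTTGGCGC on both strands, which can overlap each other where a site holds both. They occurred in 0.813% of all 32851 windows and for 0.929% of genes. Of 21 replication genes of the list with a window, 6 had a match, and of the 16 of these that rose, 5 had one. Dnmt1 had 2 matches in 1 of its 3 windows, the one with its start at 20952623. The match upstream of that start is shown, at chr9:20952789-20952873 on the minus strand. The starts of the other Dnmt1 windows, at 20959888 and 20952979, lie upstream of this stretch, so the stretch is downstream of them. The stretches of 3 replication genes that rose, Mcm5, Mcm6 and Pola1, are set beside it. They were chosen after their values were seen. Rfc3, which rose by 0.90 ± 0.16 and had a match 10 bases before its start, is not shown. Capitals mark 1 match in each stretch, and sequences run 5′ to 3′ on the strand of the gene. The Mcm5 stretch also holds an overlapping match that begins 149 bases before the start and is not marked. Mcm6 had further matches 106 and 110 bases before its start, which are not shown.
Dnmt1: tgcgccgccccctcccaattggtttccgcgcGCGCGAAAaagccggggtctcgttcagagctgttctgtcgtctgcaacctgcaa
Mcm5 (chr8:75109340-75109379, plus strand): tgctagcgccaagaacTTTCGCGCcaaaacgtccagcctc
Mcm6 (chr1:128359729-128359768, minus strand): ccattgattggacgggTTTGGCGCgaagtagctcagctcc
Pola1 (chrX:93632270-93632309, minus strand): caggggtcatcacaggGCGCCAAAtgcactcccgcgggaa
The 3 genes beside Dnmt1 rose by 0.65 ± 0.14 (Mcm5), 0.71 ± 0.13 (Mcm6) and 0.68 ± 0.12 (Pola1). The capitals began 219 bases before the start at 20952623 in Dnmt1. They began 153 bases before the annotated start in Mcm5, 47 in Mcm6 and 138 in Pola1. A match is a description of letters and not a measured binding site, and these arrays do not measure binding.

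The windows of the enzymes also differed in how many CG dinucleotides they held, the letters that the methyltransferases methylate. The 300-base window of Tet2 held 57 and the 2 overlapping upstream windows of Dnmt3a held 46 and 47, against a median of 7 over all windows. The third window of Dnmt3a held 18. The Dnmt1 window with the matches held 33 and the other Dnmt1 windows 2 and 12, the window of Dnmt3b 30, that of Tet3 22 and that of Tet1 17. Methylation itself was not measured in these samples.

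Dnmt3a, on chromosome 12, was read by 1 probe and showed the largest difference of the family. Its scaled log2 level was 2.76, 3.10 and 3.13 on the negative arrays and 1.92, 1.28 and 1.63 on the positive arrays. No positive array reached the lowest negative array, as was true of 18.6% of all tested genes. Positive cells averaged 1.61 ± 0.32 and negative cells 3.00 ± 0.21 (SD, n = 3). The difference was -1.39 ± 0.20 (SE, limma adjusted p = 0.00185, 95% confidence interval -1.84 to -0.94). In unscaled intensity the negative arrays stood at 2230, 2920 and 2490 units and the positive arrays at 1170, 711 and 659. Within same-numbered arrays the difference was -0.84, -1.82 and -1.50, so replicate 1 showed the least. Dnmt3a passed under each of the 16 alternatives, at -1.56 to -1.21. The probe carries the accession of the longer of the annotated proteins, and whether it also reads the shorter one was not tested.

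Radial glia genes fell in the same cells in which Dnmt3a fell. Of 11 measured radial glia markers, 9 fell and 0 rose, with a median difference of -1.11. The counts of this paragraph stand against 12.8% of all tested genes called higher and 13.1% called lower. Slc1a3, a glutamate transporter of radial glia, fell by 2.12 ± 0.18 (SE, limma adjusted p = 0.000294) and Sox9, a transcription factor of progenitors and glia, by 1.36 ± 0.15. Intermediate progenitor markers rose in 10 of 10, with a median of 2.47, although Neurod4 was well above background on 0 of 3 negative arrays and entered the test only through the positive arrays. Markers of postmitotic neurons went both ways, with 5 of 11 higher and 3 lower. Rbfox3, a nuclear protein of neurons, rose by 2.15 ± 0.16 and Neurod6 by 2.03 ± 0.23, whereas Mapt, the gene of the axonal protein tau, fell by 1.60 ± 0.22 (limma adjusted p = 0.00152). The part of these cell types in the lower Dnmt3a was not tested. One of the intermediate progenitor markers is Btg2 (Tis21), the gene whose locus drives the sorting signal, which rose by 0.77 ± 0.17 (adjusted p = 0.0139) and is a check of the sort rather than a finding. Among all tested genes, the centred profile over the 6 arrays was nearest to that of Dnmt3a for Mt1, a metallothionein (root mean square distance 0.098 on the log2 scale), Fabp7, the fatty-acid binding protein of radial glia (0.099), and Vsig10 (0.1). These 3 differed by -1.47, -1.35 and -1.26. Genes picked for closeness to Dnmt3a must differ by about as much, so their names are a description only.

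Markers of cells outside the neural lineage also moved with the sort, where 13.1% of all tested genes were called lower. Of 10 tested microglia and macrophage markers 9 fell, and their summed level, in multiples of each array's 75th percentile, was 42.5 to 47.9 on negative and 24.0 to 29.7 on positive arrays. That sum was 57.7% to 82.2% Itgam, the 1 tested marker that was not called, and the other 9 summed to 14.2 to 18.5 on negative and 4.27 to 7.79 on positive arrays. Of 9 meningeal and mesenchymal markers 9 fell, 4 of them dim enough not to pass as well above background on even 1 positive array, and their sum went from 5.82 to 11 down to 0.663 to 0.970. Of 9 endothelial and pericyte markers 6 fell, and again 4 were dim on all 3 positive arrays. Their sum, 8.78 to 9.82 on negative and 9.62 to 10.6 on positive arrays, was 67.6% to 95.3% Kdr, which was not called, and the other 8 summed to 1.82 to 2.84 and 0.457 to 0.688. The dim genes of both lists passed the filter only through the negative arrays. Red-cell markers passed in 0 of 6 and interneuron markers fell in 3 of 8. Of the markers that fell, Gad1, Npy, Col1a1 and Nid1 were well above background on 1 of 3 positive arrays and Cx3cr1 on 2. They too passed the filter only through the negative arrays. The part of the cells of these lists in the lower Dnmt3a was not tested. The markers of the labelled tissue were present: all 8 of the list of cortical progenitors, among them Emx1, were well above background on all 6 arrays.

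Dnmt3b, on chromosome 2, was read by 3 probes, all well above background on every array. Its brightest probe stood at 1.35, 1.48 and 1.37 on the negative and 1.35, 1.30 and 1.45 on the positive arrays, so the groups overlapped. The difference was -0.03 ± 0.12 (SE, limma adjusted p = 0.866), and its 95% confidence interval of -0.32 to 0.26 does not reach the size of the fall in Dnmt3a. The other probes differed by 0.22 ± 0.14 and -0.03 ± 0.13. Its sign has no meaning at this size, since it was 0.15 with scaling to the median of all probes and 0.05 with the mean of the gene's probes.

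**Figure D2:**
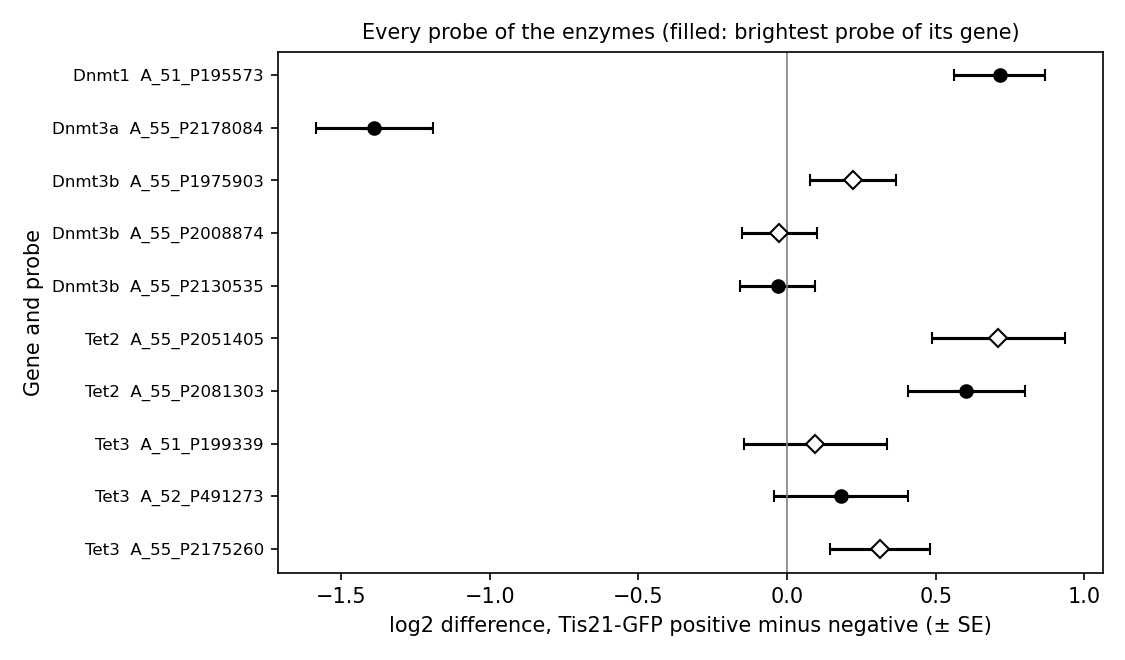
Log2 difference, Tis21-GFP positive minus negative, with its SE (horizontal axis) for each of the 10 probes of the enzyme genes (rows), where filled circles are the brightest probe of a gene and open diamonds the others. Dnmt1 stands at 0.71 and Dnmt3a at -1.39, both Tet2 probes lie to the right of 0 at 0.60 and 0.71, and the probes of Dnmt3b and Tet3 lie between -0.03 and 0.31.

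Tet2, on chromosome 3, was read by 2 probes. The brighter one stood at 2.11, 2.00 and 2.62 on the negative and 2.71, 3.06 and 2.78 on the positive arrays. The groups did not overlap, but negative replicate 3 came close to the lowest positive array. The difference was 0.60 ± 0.20 (SE, limma adjusted p = 0.0556, 95% confidence interval 0.15 to 1.05), and within same-numbered arrays it was 0.59, 1.06 and 0.15. The second probe gave 0.71 ± 0.22 (adjusted p = 0.0529 over all named probes, limma) and likewise missed the threshold. Tet2 passed without Tis21-GFP negative replicate 3 (0.79, adjusted p = 0.0277), with scaling to the median of all probes (0.78), with normexp background (0.53), with only probes well above background on all 6 arrays (0.60) and with a variance trend and robust fit (0.60). Tet2 did not pass with the authors' processed values (0.42, limma adjusted p = 0.176), with quantile normalization (0.42) or with the percentile over probes detected on all 6 arrays (0.43). It also did not pass with the replicate block (0.60, limma adjusted p = 0.0626). Its adjusted p ran from 0.019 to 0.176 over all its alternatives.

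Tet3, on chromosome 6, was read by 3 probes, dimmer than the 75th percentile on every array but well above background on all 6. Its brightest probe stood at -1.05, -1.12 and -0.89 on the negative and at -1.33, -0.72 and -0.45 on the positive arrays. Positive replicate 1 was the lowest of all 6, and positive replicates 2 and 3 were the highest. The difference was 0.18 ± 0.22 (SE, limma adjusted p = 0.568), with a wide 95% confidence interval of -0.34 to 0.70. The other probes differed by 0.10 ± 0.24 and 0.31 ± 0.17. Without Tis21-GFP positive replicate 3 the difference was -0.01, and without Tis21-GFP positive replicate 1 it was 0.43.

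Because the scaling of an array cancels in the difference of 2 genes on that array, the changes of the enzymes were also set against each other. Dnmt1 changed by 2.10 ± 0.31 more than Dnmt3a (SE, n = 3 per group), and the within-array values of the groups did not overlap. Dnmt3a changed by -1.36 ± 0.20 relative to Dnmt3b and by -1.99 ± 0.34 relative to Tet2, in both cases without overlap. Dnmt1 changed by 0.75 ± 0.18 relative to Dnmt3b, again without overlap, and by 0.11 ± 0.23 relative to Tet2, where the groups overlapped. Among single tested genes 46.8% did not overlap between groups, and the share among pairs of genes at large was not computed. Of the 10 pairs, 6 did not overlap between groups, and every pair with Dnmt3a was among them. Each of these 6 had an exact two-sided permutation p of 0.1, the smallest that 3 arrays against 3 allow when the pairing of same-numbered arrays is ignored. The adjusted p of that permutation was 0.167 over the 10 pairs, so this test could not pass for any pair.

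**Figure D3:**
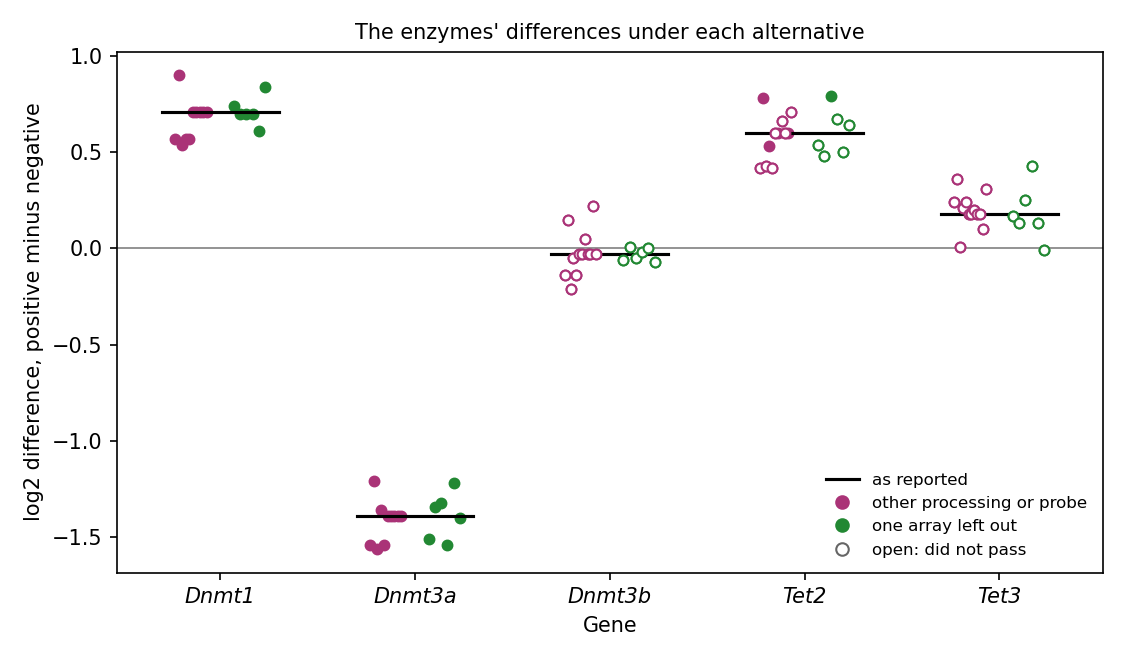
Log2 difference, Tis21-GFP positive minus negative (vertical axis), of each enzyme gene as reported (black line), under other processing or another probe (purple) and with 1 array left out (green), where open points did not pass the adjusted threshold. All points are filled for Dnmt1 (0.54 to 0.90) and Dnmt3a (-1.56 to -1.21), a few for Tet2 (0.42 to 0.79), and none for Dnmt3b and Tet3.

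The genes that work with these enzymes were read from 6 lists with 68 genes, of which 63 were tested. Of these, 12 rose and 4 fell. That is 25.4% called, against 25.9% of all tested genes, and a median difference of 0.32 against 0.115. Lists of partners were chosen with earlier results on these arrays known. The counts of each list below stand against 12.8% of all tested genes called higher and 13.1% called lower.

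Among 9 partners of maintenance methylation, 2 rose and 0 fell, with a median of 0.26. Pcna rose by 0.90 ± 0.12 (SE, limma adjusted p = 0.00156), from 5.51 to 5.54 on the negative arrays to 6.34 to 6.49 on the positive arrays. Lig1, the ligase of Okazaki fragments, rose by 0.69 ± 0.18 (adjusted p = 0.024). Lig1 did not pass under 7 of the 16 alternatives, among them the authors' processed values (0.40) and the fits that left out positive replicate 1 (0.53), negative replicate 1 (0.70) or negative replicate 2 (0.61). Uhrf1 stood at 4.5, 4.43 and 4.6 on the negative and 4.90, 4.77 and 4.96 on the positive arrays. Its groups did not overlap, but its difference of 0.36 ± 0.13 did not pass (limma adjusted p = 0.0708). Hells, a chromatin remodeller needed for methylation of repeats, had a difference of 0.02 ± 0.13.

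Among 9 tested regulators of de novo methylation, 1 rose and 0 fell, with a median of 0.32. The one that rose was Kdm1b, a histone demethylase known for its part in de novo methylation in oocytes, by 0.62 ± 0.14 (SE, limma adjusted p = 0.0173). That call was lost when negative replicate 1 (0.60), negative replicate 3 (0.57) or positive replicate 1 (0.53) was left out. Dnmt3l, the catalytically inactive partner of Dnmt3a and Dnmt3b in germ cells, was well above background on 1 of the 6 arrays and was not tested.

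The readers of methylated DNA went both ways, with 2 of 10 higher and 2 lower. Zbtb38, a zinc-finger protein that binds methylated DNA, stood at -2.56, -2.72 and -2.74 on the negative and at -1, -1.35 and -1.33 on the positive arrays. It rose by 1.45 ± 0.15 (SE, limma adjusted p = 0.000489), or by 0.79 with normexp background. Mbd2, a methyl-CpG binding repressor, fell by 1.06 ± 0.15 (adjusted p = 0.00188) and by 0.56 with the mean of its probes. Its positive arrays stood at -0.66, -0.80 and -0.80 and its negative arrays at 0.29, 0.10 and 0.53. Zbtb4, of the same zinc-finger group as Zbtb38, fell by 1.00 ± 0.17 (adjusted p = 0.0042), or by 0.52 with normexp background, so these relatives moved in opposite directions. Mbd3, which is part of the NuRD complex and binds methylated DNA weakly, rose by 0.51 ± 0.13 (adjusted p = 0.0209), a call lost under 9 of the 16 alternatives. It was 0.22 with quantile normalization, and leaving out negative replicate 1 (0.54), 2 (0.47) or 3 (0.52) or positive replicate 1 (0.49) ended it.

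Genes that act after or beside Tet rose in 5 of 13 and fell in 1, with a median of 0.44. Of all tested genes, 12.8% were called higher and 13.1% lower. Gadd45g, a stress-response protein that has been linked to demethylation and is also a marker of intermediate progenitors, rose by 2.31 ± 0.18 (SE, limma adjusted p = 0.000219). Its levels were 3.12, 3.70 and 3.50 on the negative and 5.57, 5.85 and 5.84 on the positive arrays. The repair polymerase gene Polb rose by 0.65 ± 0.15 (adjusted p = 0.0188), the endonuclease gene Apex1 by 0.63 ± 0.16 (0.0236) and Tdg by 0.49 ± 0.14 (0.0347). Tdg had a difference of 0.20 with the mean of its probes and did not pass there (limma adjusted p = 0.253). Leaving out negative replicate 1, 2 or 3 or positive replicate 2 or 3 also ended the call of Tdg (0.44 to 0.51). In all, that call was lost under 9 of the 16 alternatives. Apex1 did not pass with the authors' processed values (0.38), or when negative replicate 1 (0.55), negative replicate 3 (0.57), positive replicate 1 (0.63) or positive replicate 2 (0.58) was left out, and Polb when negative replicate 1 was left out (0.55). Gadd45a had a difference of 1.01 ± 0.31 that passed narrowly (adjusted p = 0.0478), with overlapping groups. Within same-numbered arrays its differences were 1.19, 0.90 and 0.95, and the fit with the replicate block gave an SE of 0.13 (limma adjusted p = 0.00351). Without the block it did not pass under 8 of the 16 alternatives, 4 of which left out negative replicate 1 (0.90), negative replicate 3 (0.83), positive replicate 1 (1.04) or positive replicate 2 (0.76). The cytidine deaminase gene Apobec1, which edits RNA and is expressed in macrophages, fell by 1.75 ± 0.27 (adjusted p = 0.00298). Its levels were 0.47, 0.63 and 0.13 on the negative and -0.71, -1.63 and -1.68 on the positive arrays, and the microglia markers given above fell in the same arrays. Their part in its fall was not tested. The deaminase gene Apobec2 was well above background on 0 of the 6 arrays and was not tested.

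Among 12 tested cofactor and partner genes of Tet, 1 rose and 1 fell. Idh2, the mitochondrial isocitrate dehydrogenase that makes alpha-ketoglutarate, rose by 0.93 ± 0.12 (SE, limma adjusted p = 0.00128), from 5.61 to 5.70 on the negative to 6.55 to 6.64 on the positive arrays. Of 11 tested genes of methyl donor supply, 1 rose and 0 fell. Shmt2, which feeds the mitochondrial folate cycle, rose by 0.98 ± 0.14 (adjusted p = 0.00175). Mat2a, which makes the methyl donor S-adenosylmethionine, differed by 0.43 ± 0.17 without passing (limma adjusted p = 0.096).

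**Figure D4:**
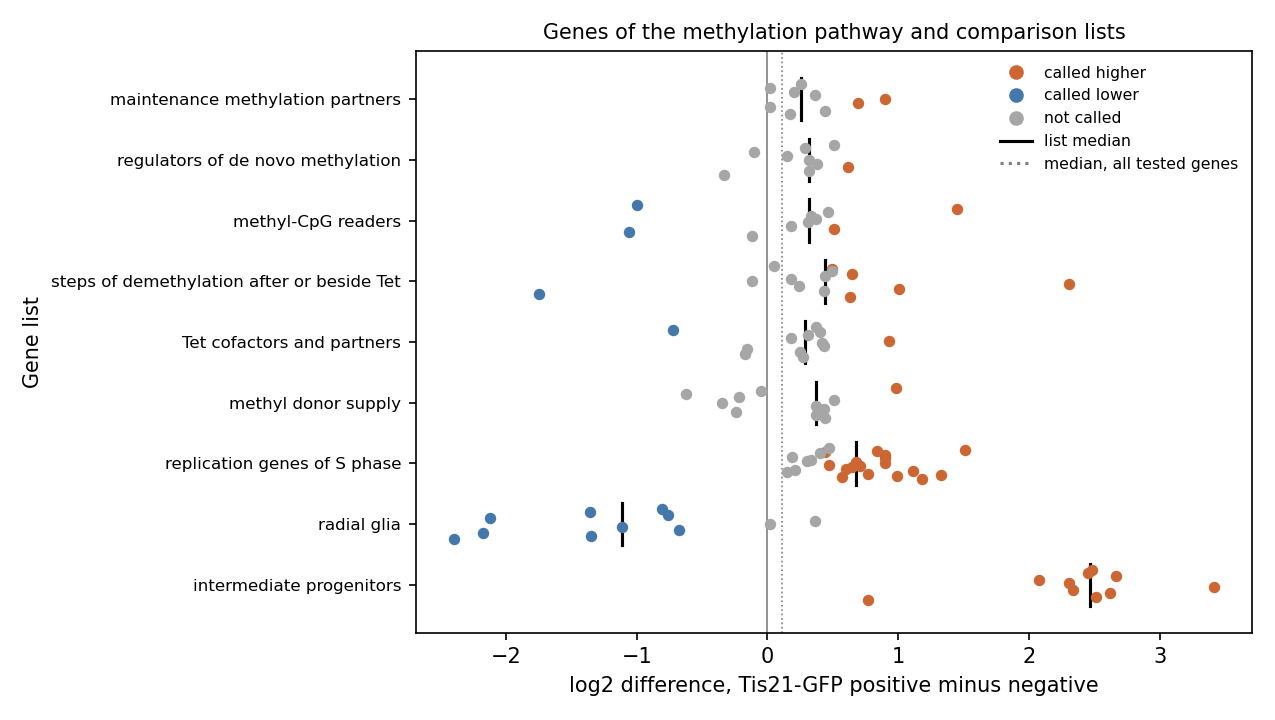
Log2 difference, Tis21-GFP positive minus negative (horizontal axis), of each tested gene (points) in the 6 pathway lists and in 3 lists for comparison (rows), coloured by call, with each list's median (black) and the median of all tested genes (dotted, 0.115). The pathway lists have medians of 0.26 to 0.44, with called genes on both sides of 0 for readers, demethylation steps and Tet cofactors, whereas replication genes are centred on 0.68, radial glia markers on -1.11 and intermediate progenitor markers on 2.47.

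Most genes that somatic cells are known to keep silent by promoter methylation were too dim to test. Of 16 such genes, mainly of germ cells, pluripotent cells and glia, 14 did not pass the filter on dim probes, and 11 of those had no probe well above background on any array, among them Dazl, Ddx4 and Sycp3, genes of germ cells. Among all 19988 named genes, 13140 passed that filter. Gfap, the astrocyte filament gene, was well above background on 1 of the 6 arrays. The 2 tested genes were not called. Taf7l, a germ-cell gene, was nevertheless bright on its probe, at 3.17 to 3.27 on the negative and 3.07 to 3.36 on the positive arrays, and had a difference of -0.03 ± 0.14 (SE, limma adjusted p = 0.866) and Nanog of 0.19 ± 0.22 (adjusted p = 0.54). Nanog has near-identical copies in the genome, so its probe is uncertain.

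For the other enzymes too, the tested genes with the nearest centred profiles over the 6 arrays were found. For Dnmt1 these included Gga2, a clathrin adaptor, and Gtpbp1, at root mean square distances of 0.034 and 0.044. They rose by 0.69 and 0.66. The nearest to Dnmt3b were Htra2, Zc3h13 and Glg1, with differences of 0.00, 0.01 and -0.05. Those of Tet2 were Ccdc88c, Tdpoz7 and Bahd1 at distances of 0.083 to 0.103, each with a difference of 0.50 to 0.54 that did not pass. Those of Tet3 were Relch, Lcn12 and Sntb1, at 0.073 to 0.084. These names, the nearest of 13140 genes over 6 arrays, are a description only.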

How the data were processed

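The authors' scanner files hold intensity values per spot written by Feature Extraction 10.7.1.1 (Agilent; per the submitters' processing notes and the file headers), in which the processed intensity is background-subtracted and detrended and not scaled between arrays. The authors' deposited value table, used as an alternative, was taken to hold quantile-normalized log2 values because its columns have medians of 4.67 to 4.671 and correlate with the scanner values at 0.99948 or more. How it was made is not stated here. Of 62976 spots, control spots and outlier spots were left out, and 0 spots were saturated. Replicate spots were averaged as log2, and each array's 75th percentile was subtracted. A probe was kept if well above background on all 3 arrays of a group. Probes were named through RefSeq transcripts (26370 of 55681, 19988 genes), and a gene was read by its brightest probe. The comparison used R 4.3.3 and limma 3.58.1, with group as the only term, and was checked on simulated data. The number of arrays limits the precision.

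The replicate numbers of the labels were tested as pairs. Arrays of the same number had correlations of 0.23, 0.13 and 0.37 in their deviations from the group means, and other pairs at most 0.06. Deviations cancel within a group, so these correlations are not independent. Same-numbered arrays were taken as pairs. The main fit and the SE and permutation of gene pairs ignore the pairing, and the fit with the replicate block is given below as an alternative. All arrays came from 1 slide. Per the labels, replicates came from independent experiments. The 6 enzymes and all gene lists were chosen with earlier results of these data known. Genes named are the enzymes, up to 6 called genes per direction of each pathway list with the smallest adjusted p, up to 3 per marker list, and the 3 nearest profiles of each enzyme. Uhrf1, Hells, Mat2a, Mcm5, Mcm6, Pola1, Rfc3, Btg2, Neurod4, Itgam, Kdr, Col1a1, Nid1, Cx3cr1, Dmap1, Smug1, Parp1, Mtrr and list members named without values were chosen after their values were seen. A few further genes under this rule are not reported here.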

Additional observations from a re-analysis of the deposited data

How the results depend on the processing

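Dnmt1 and Dnmt3a kept their direction and their call under each alternative run, including each array left out (0.61 to 0.84 and -1.54 to -1.22). The fit with the replicate block left Dnmt1 at 0.71 (adjusted p = 0.0145) and Dnmt3a at -1.39 (0.00625) and kept the call of every tested gene that the report gives with a value, by limma, with 2017 genes higher and 1967 lower of all tested. Among the 6 pathway lists it called 15 higher and 5 lower, against 12 and 4, the added genes being Dmap1, Smug1, Parp1 and Mtrr. Tet2 passed at 0.78, 0.53, 0.60 and 0.60 under the settings named above, and ran from 0.48 to 0.79 with an array left out. The sign of Dnmt3b was positive with scaling to the median of all probes (0.15), with the mean of its probes (0.05) and with another probe (0.22), and ran from -0.07 to 0.01 with an array left out. Tet3 ran there from -0.01 to 0.43, Dnmt1 relative to Tet2 from -0.09 to 0.22, and Taf7l turned to 0.15 with median scaling and 0.02 with normexp background, and ran from -0.13 to 0.02 with an array left out. Genes called higher of all tested numbered 933 when the 75th percentile came from probes detected on every array, 1123 from the authors' table, 896 with no filter on dim probes and 761 to 1729 with an array left out, against 1687. The lowest were without negative replicate 1 (761), negative replicate 3 (781) and positive replicate 1 (1058). Those of the 6 pathway lists numbered 7, 6 with no filter and 20 with a variance trend and robust fit, and 5 to 14 with an array left out, against 12, with 5 without negative replicate 1 and 7 without negative replicate 3 or positive replicate 1. Of all calls, 49.6% were higher, against 65.8% with median scaling and 29.1% with the percentile over detected probes. Scaling to the median of all probes moved the median difference of all genes from 0.115 to 0.297. The causes were not tested.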
